A study of Homo sapiens with 4 samples.

Results

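The genes described here encode the proteins of the cytosolic ribosome. They were taken from the deposited count table as the protein-coding rows named RPSA, RPLP0, RPLP1 or RPLP2, or RPL or RPS followed by a number with an optional A, X or L ending, without the RPS6K kinases. That rule gave 84 of the 58735 genes in the table, 52 of the large subunit and 32 of the small subunit. Of the 84, 7 have names with an L ending that mark a paralog of another member (RPL3L, RPL7L1, RPL10L, RPL22L1, RPL26L1, RPL39L and RPS27L). A mean of at least 1 CPM (counts scaled to the library's total) over the libraries was reached by 82 genes, 50 large and 32 small, among 14585 genes in the whole table. RPL10L had 0 reads in all 4 libraries. RPL3L had 4 reads in Bulk, then 19 (Claret), 4 (eGFP) and 9 (Violet). These 2 genes entered no test of expression. FAU and RPL36AL also encode cytosolic ribosomal proteins but fall outside the naming rule, and they are given further on.

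The cells were MDA-MB-231, a long-established line from a human triple-negative breast tumour, transduced with a TetOn-H2BeGFP reporter that doxycycline switches on. All 4 groups shared the reporter, doxycycline at 5 μg/ml for 3 days, labelling with Claret and Violet dyes and a chase of 12 days, during which dividing cells dilute each label. The Claret, eGFP and Violet groups are the top 1% of cells for retention of that label, sorted separately as slow-cycling cells, and Bulk was sorted with no fluorescence gate. Each group holds 1 library, so no difference below has a replicate check, and each test compares the reads of 2 libraries and not the conditions.

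Groups follow the sample titles. In every sample the treatment field names another sort. There, the title Bulk goes with a Claret sort, Claret with eGFP, H2B-eGFP with Violet, and Violet with an un-gated sort. All values below name libraries by title, and the main ones are also given with the treatment field in place of the titles.

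Summed reads ranged from 15508179 to 16976909 per library, so that 3 reads, the limit that a count of 0 allows, stand for 0.177 to 0.193 CPM. Of all reads, mitochondrial genes took 4.18% in Bulk and 5.06% to 5.48% in the slow-cycling libraries. VIM, CD44, AXL, CAV1 and MSN, which mark this mesenchymal line, had 3742 to 24390 reads in every library. Of the 5 genes absent or low in the line, ESR1 had 3 to 7 reads, PGR 0, CDH1 0 to 3 and EPCAM 28 to 61, while ERBB2 had 1415 to 1542. The 7 marker genes of blood, endothelial and liver cells summed to 3.99 CPM in Bulk, 6.24 (Claret), 5.23 (eGFP) and 7.29 (Violet), and CD3E and HBB were at 0 in all 4. The part of the mitochondrial reads and of those 7 genes in the results below was not tested.

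A ribosome is built from a small subunit, which decodes the message, and a large subunit, which forms the peptide bond, each a shell of proteins on ribosomal RNA. Most of the proteins are needed in equal numbers, and their messages are among the most abundant in a dividing cell. Most of these messages begin with a C followed by a run of pyrimidines, the terminal oligopyrimidine (TOP) tract, through which mTORC1 and LARP1 control their translation and stability. Ribosomal RNA is transcribed by RNA polymerase I and assembled with the proteins in the nucleolus by factors that leave before the subunits are used. A few proteins have a second gene, the paralog with an L ending. In some cases its product can take the place of the partner or is made mainly in particular tissues.

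The start of the message was looked up in RefSeq on GRCh38.p14, whose promoter table held 67 of the 84 genes. A run of at least 6 C or T letters that begins with C and starts within 10 bases of the annotated start, on the sense strand, was found in 51 of the 67 (76.1%). The same search found a run at 20.5% of all 27305 genes in that table. Runs were present in 29 of 38 large-subunit genes without an L ending and in 21 of 24 small-subunit genes without one. Only 1 of the 5 L-ending paralogs in the table, RPL22L1, had such a run. The windows below are those of some paralogs and partners, and of some genes at the high or low end in the slow-cycling libraries. Not printed are RPL6, called lower in eGFP and Violet, and RPL10 and RPL13, among the high genes, which show no run. Each window holds the 10 bases before the annotated start and the first 20 bases of the message, read 5′ to 3′ on the gene's strand, with the run in capitals.
RPL26 (chr17:8383174-8383203, minus strand): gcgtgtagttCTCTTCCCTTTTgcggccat
RPL26L1 (chr5:172958719-172958748, plus strand): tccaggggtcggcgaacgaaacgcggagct
RPL22 (chr1:6199576-6199605, minus strand): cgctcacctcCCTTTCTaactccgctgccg
RPL22L1 (chr3:170870176-170870205, minus strand): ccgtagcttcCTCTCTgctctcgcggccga
RPS27 (chr1:153990752-153990781, plus strand): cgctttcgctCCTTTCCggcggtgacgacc
RPS27L (chr15:63157458-63157487, minus strand): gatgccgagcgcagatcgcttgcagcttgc
RPL7L1 (chr6:42879606-42879635, plus strand): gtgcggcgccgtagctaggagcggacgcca
RPL13A (chr19:49487598-49487627, plus strand): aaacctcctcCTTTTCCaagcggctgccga
RPL12 (chr9:127451387-127451416, minus strand): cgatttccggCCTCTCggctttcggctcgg
RPL3 (chr22:39319604-39319633, minus strand): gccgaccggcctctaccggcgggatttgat
RPL35 (chr9:124861938-124861967, minus strand): cgcctacttcCTCTTTCCCTCggagcgggc
RPS24 (chr10:78033853-78033882, plus strand): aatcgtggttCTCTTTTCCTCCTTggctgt
In RPL26, RPL22 and RPS27 the run starts at the first base of the message, while 2 of their 3 paralogs, RPL26L1 and RPS27L, show none in this window.

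The slow-cycling libraries spent a larger share of their reads on ribosomal protein genes than Bulk. The 84 genes together took 4.79% of all reads in Bulk (95% Clopper-Pearson interval 4.78% to 4.80%). They took 6.61% in Claret (6.60% to 6.62%), 6.48% in eGFP (6.47% to 6.49%) and 5.93% in Violet (5.92% to 5.94%). All 3 slow-cycling libraries lay above Bulk, and Violet was the nearest to it. Such intervals reflect counting error alone, since molecular identifiers were not used and no culture was repeated. In such bulk RNA, more message per cell and more cells with a given level cannot be told apart.

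**Figure D1:**
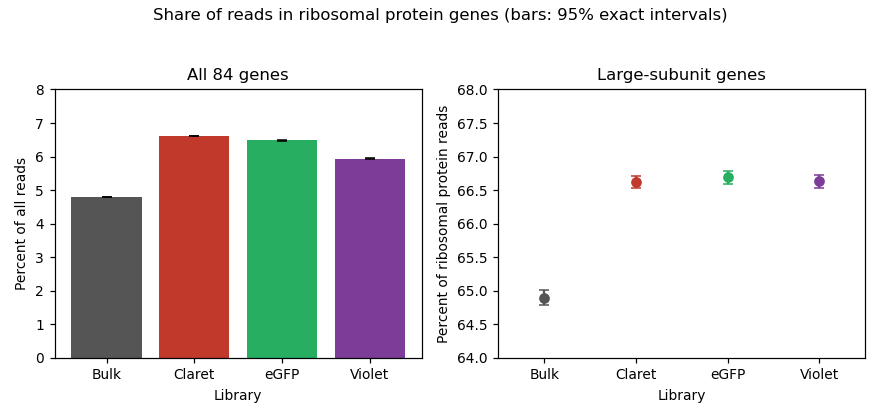
Left, percent of all reads of a library in the 84 ribosomal protein genes; right, percent of the ribosomal protein reads in large-subunit genes, on an axis that does not start at 0. Bars on the symbols are 95% exact intervals for counting error, each library is 1 sample, and all 3 slow-cycling libraries lie above Bulk in both panels.

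The balance between the subunits also differed between Bulk and the sorted cells, by less than 2 percentage points. Large-subunit genes held 64.9% of ribosomal protein reads in Bulk (64.8% to 65.0%), against 66.6% in Claret (66.5% to 66.7%), 66.7% in eGFP (66.6% to 66.8%) and 66.6% in Violet (66.5% to 66.7%). The intervals of the 3 slow-cycling libraries overlap each other and do not reach that of Bulk. RPL3, the gene with the highest ratio of all, is a large-subunit gene and supplied 27135 of the 498681 large-subunit reads in Bulk and 59016 of the 747759 in Claret. Per length, the median level of the 46 large-subunit genes without an L ending was 153 FPKM (fragments scaled to gene length and library total) in Bulk, 192 (Claret), 185 (eGFP) and 168 (Violet). For the 31 small-subunit genes without an L ending the median was 181 FPKM in Bulk, 218 (Claret), 213 (eGFP) and 190 (Violet). Both subunit medians were lowest in Bulk and, among the sorted cells, lowest in Violet. The deposited FPKM rest on library totals of 96.9% of the summed reads in Bulk and 103.5% in Violet. These medians are thus not on a common scale between libraries.

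Gene by gene, most members were called higher than in Bulk in Claret and eGFP, and fewer in Violet, mostly by well under 2-fold. Ratios are log2 ratios of CPM after TMM scaling with a prior count of 2, and a gene is called when its adjusted p is under 0.05 and its log2 ratio at least 0.25 in size (1.19-fold). In Claret 59 of 82 were called higher and 3 lower, where 29.3% of all 14585 genes were called higher and 30.7% lower. In eGFP 55 were called higher and 4 lower, beside 30% and 31.5% of all genes. In Violet 34 were called higher and 6 lower, beside 30.3% and 30.5%. The share of members called higher thus lay above the share of all genes in each library, and by least in Violet. The members had a median level of 623 CPM, against 25.7 for all genes kept. With more reads a small ratio passes the test more readily, so this background is not matched in level. The 3 comparisons share the Bulk library, so they are not independent of each other.

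The median log2 ratio of the 82 genes was 0.39 (Claret), 0.36 (eGFP) and 0.20 (Violet), while the median of all 14585 genes was -0.01, -0.01 and 0.01. Without the L-ending paralogs the large-subunit median was 0.42 (Claret), 0.39 (eGFP) and 0.23 (Violet), over 46 genes. The small-subunit median was 0.38, 0.33 and 0.20 over 31 genes. The subunits thus moved by similar amounts, with the large subunit slightly above the small one in each library. Among these 46 large-subunit genes 37, 34 and 21 were called higher and 0, 1 and 1 lower in Claret, eGFP and Violet. Among the 31 small-subunit genes 21, 20 and 13 were called higher and 0, 0 and 2 lower. At a threshold of 2-fold almost all calls disappeared. In Claret 1 gene was called higher and 1 lower past 2-fold, beside 11.2% and 6.71% of all genes. In eGFP it was again 1 and 1, beside 11.9% and 7.61%. In Violet 0 genes were higher and 2 lower, beside 11.5% and 6.91%. The share of members past 2-fold upward thus lay below that of all genes in each library, again a background not matched in level.

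With the treatment field in place of the titles, the library titled Violet is the reference. The median log2 ratio is then -0.20 for the library called Claret, which is titled Bulk, 0.17 for the one called eGFP and 0.14 for the one called Violet. Members called higher and lower are then 6 and 34, 8 and 0, and 5 and 0 in that order. The direction between the library titled Bulk and the other 3 is the same under both readings, but which sort it stands for is not.

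**Figure D2:**
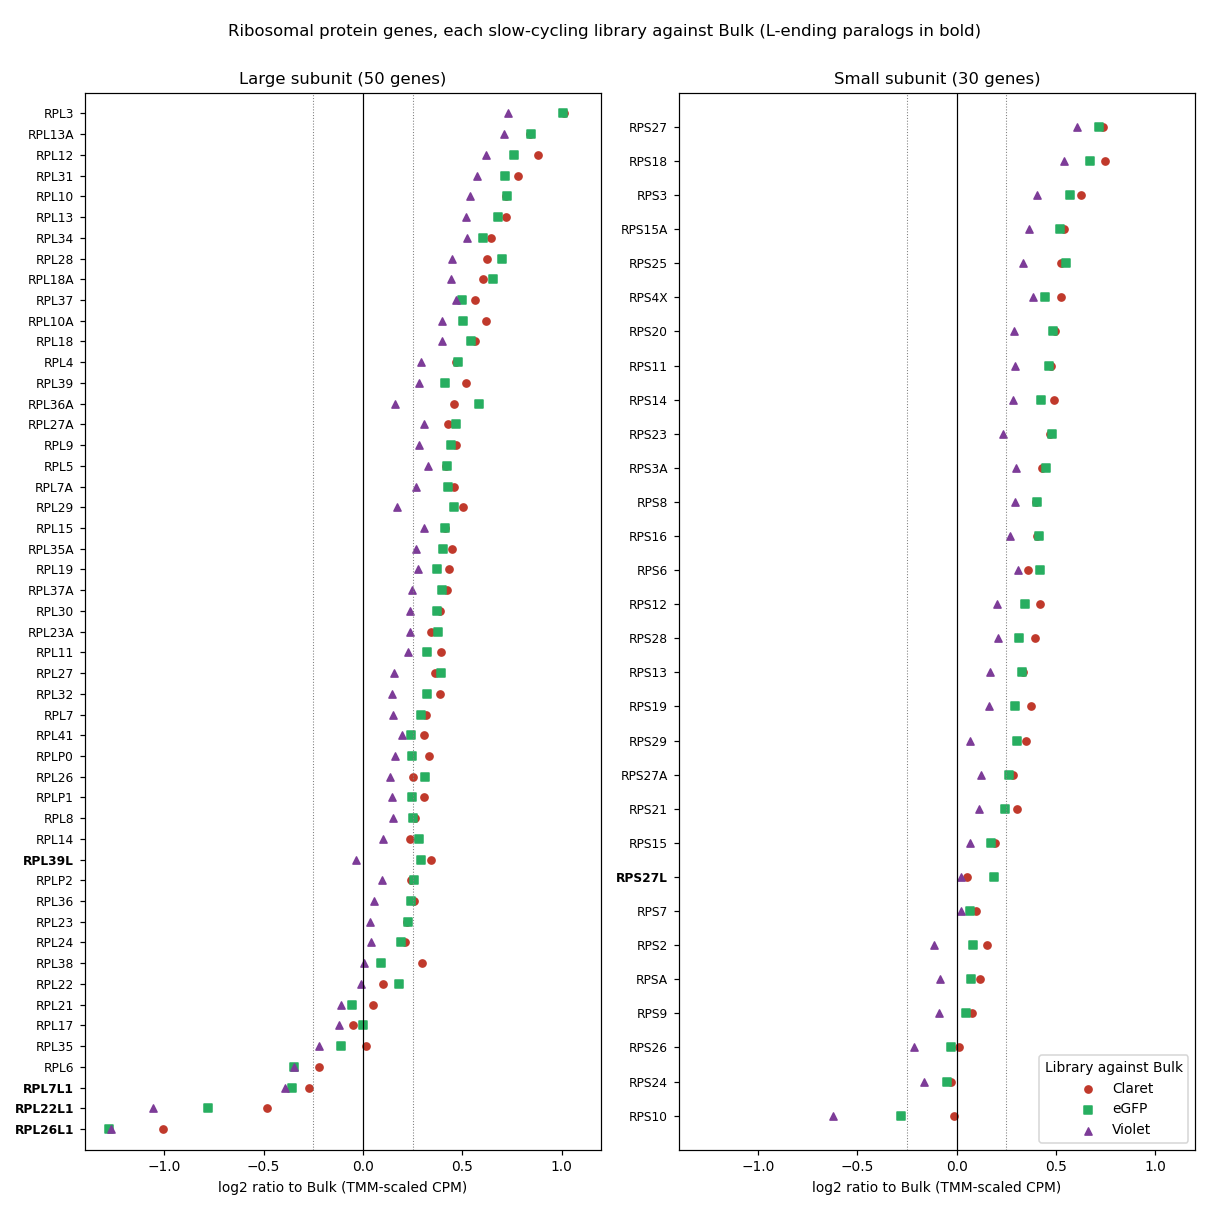
Log2 ratio of each slow-cycling library to Bulk on the horizontal axis for 80 ribosomal protein genes, 1 gene per row, ordered by the mean of the 3 ratios, with 1 library per symbol and dotted lines at 0.25 either side of 0. Most symbols lie right of 0, Violet is the leftmost of the 3 in 78 rows, and the L-ending paralogs RPL7L1, RPL22L1 and RPL26L1, in bold, lie left of 0.

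In Claret the members called lower were RPL7L1, RPL22L1 and RPL26L1, all of them L-ending paralogs. In eGFP the same 3 and RPL6 were called lower, and in Violet these 4 and RPS10 were among those called lower. Members called in no library, in either direction, included RPS2, RPSA, RPS7, RPS9, RPS15, RPS24, RPS26, RPS27L, RPL17, RPL21, RPL22, RPL23, RPL24 and RPL35, the last of which was called lower in Violet under other settings given below with its values.

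RPL3 stood highest. It encodes a core protein of the large subunit whose tip reaches toward the peptidyl transferase centre. The gene (ENSG00000100316, chr22:39312882-39320389, minus strand, GRCh38) had 27135 reads in Bulk, then 59016 (Claret), 54983 (eGFP) and 45037 (Violet). Bulk was lowest by a wide margin, Claret and eGFP lay close together, and Violet lay between them and Bulk. Its log2 ratio was 1.01 in Claret (interval 0.99 to 1.03), 1.01 in eGFP (0.99 to 1.03) and 0.73 in Violet (0.71 to 0.75). It was the sole member past 2-fold upward, and the value crosses that line with the scaling: with DESeq2 size factors it was 0.99 in Claret and 0.98 in eGFP, and after centring along GC content 0.97 and 0.94.

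RPL13A, a large-subunit protein also known for a role outside the ribosome in silencing inflammatory messages, had 21989 reads in Bulk, then 42507 (Claret), 39938 (eGFP) and 35997 (Violet). Its log2 ratio was 0.84 (0.82 to 0.87), 0.85 (0.82 to 0.87) and 0.71 (0.69 to 0.74) in that order of libraries. The gene (ENSG00000142541, chr19:49487554-49492308, plus strand) also had the highest level per length of all large-subunit genes in Claret, 1057 FPKM, against 597 in Bulk. RPL12, at the base of the stalk that recruits elongation factors (ENSG00000197958, chr9:127447674-127451405, minus strand), had 13648 reads in Bulk, then 27088 (Claret), 23363 (eGFP) and 20945 (Violet). That gives log2 ratios of 0.88 (0.85 to 0.91), 0.76 (0.73 to 0.79) and 0.62 (0.59 to 0.65). For RPL12 the 3 slow-cycling libraries were ordered Claret, eGFP, Violet with intervals that do not overlap.

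Close behind were 3 other large-subunit genes. RPL31, a protein beside the exit of the peptide tunnel, had 6259, 11587, 10379 and 9325 reads in Bulk, Claret, eGFP and Violet. RPL13 had 19532, 34740, 31564 and 27940 reads in the same order. RPL10, which joins the subunit late and is needed before it can pair with the small subunit, had 14216, 25258, 23691 and 20647. All 3 were lowest in Bulk. Their log2 ratios were 0.78, 0.72 and 0.58 for RPL31, 0.72, 0.68 and 0.52 for RPL13, and 0.72, 0.72 and 0.54 for RPL10, in Claret, eGFP and Violet. RPL10 shares the most sequence with other genes, since 59.8% of the 31-base words of its exons also occur in other genes, against a median of 16.8% over the 84. Of its exon bases, 52.7% lie opposite exons of a gene on the other strand, chiefly DNASE1L1. Words were matched on both strands, so those in this overlap count within the 59.8%. How the submitters' counting treated strand and reads that match several genes is not given in the sources used here.

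The stalk proteins RPLP0, RPLP1 and RPLP2, which carry the elongation factors to the ribosome, moved less. RPLP0 had 37814 reads in Bulk, the most of any member, then 51406 (Claret), 45212 (eGFP) and 42254 (Violet). Its log2 ratio was 0.34 in Claret (0.32 to 0.35), 0.25 in eGFP (0.23 to 0.26) and 0.16 in Violet (0.14 to 0.18). Only the value in Claret passed the threshold. RPLP1 gave 0.31, 0.25 and 0.15, and RPLP2 gave 0.24, 0.26 and 0.09. For all 3 stalk genes Violet was the nearest to Bulk. Their values in Claret and eGFP sit near the threshold, and calls were gained or lost under several alternatives. The eGFP ratio of RPLP2, for example, was 0.115 after centring along GC content.

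RPL4 and RPL5 are also among the members with the most reads. RPL4, whose loop lines the peptide tunnel, had 32594 reads in Bulk, then 48662 (Claret), 45841 (eGFP) and 39932 (Violet). Its log2 ratios were 0.47, 0.48 and 0.29, and the last of these was 0.246 with DESeq2 size factors, below the threshold. RPL5, which carries 5S ribosomal RNA and can bind MDM2 when unassembled, had 22992, 33117, 31053 and 28872 reads and log2 ratios of 0.42, 0.42 and 0.33. Both were called higher in all 3 libraries.

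Against this trend, RPL6 was the sole large-subunit gene outside the paralogs that was called lower. It had 16242 reads in Bulk, then 15034 (Claret), 12861 (eGFP) and 12764 (Violet), so Bulk was the highest of the 4. The log2 ratio was -0.22 in Claret (-0.25 to -0.19), below the threshold in size, and -0.35 in both eGFP (-0.38 to -0.32) and Violet (-0.38 to -0.31). The gene (ENSG00000089009, chr12:112405190-112418838, minus strand) codes for a structural protein of the large subunit. RPL35, at the tunnel exit, had 11387, 12411, 10654 and 9769 reads, and log2 ratios of 0.02, -0.11 and -0.22. It missed the threshold under TMM, but in Violet it was -0.27 with DESeq2 size factors, -0.30 centred along gene length and -0.39 centred along GC content, where eGFP also passed at -0.31.

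RPL29 and RPL38 had among the widest ranges within the slow-cycling libraries. RPL29, a surface protein of the large subunit, had 9102 reads in Bulk, then 13915 (Claret), 12631 (eGFP) and 10257 (Violet), and log2 ratios of 0.50, 0.46 and 0.17. RPL38, known for its part in translating homeobox messages, had 3403, 4505, 3662 and 3417 reads and log2 ratios of 0.30, 0.09 and 0.01. For RPL38, Claret alone stood above the other 3 libraries. For RPL29, it was Violet that stood apart from the other sorted cells.

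In the small subunit the highest ratios belonged to RPS18 and RPS27. RPS18, a protein of the subunit's head (ENSG00000231500, chr6:33272010-33276510, plus strand), had 13392 reads in Bulk, then 24251 (Claret), 21543 (eGFP) and 19478 (Violet). Its log2 ratio was 0.75 (0.72 to 0.78), 0.67 (0.64 to 0.70) and 0.54 (0.51 to 0.57). RPS27, a zinc-finger protein (ENSG00000177954, chr1:153990755-153992155, plus strand), had 5945, 10657, 9863 and 9048 reads and gave 0.73 (0.69 to 0.78), 0.72 (0.67 to 0.76) and 0.61 (0.56 to 0.65). Bulk was lowest for both. RPS4X, the X-linked form of its protein, had 13058, 20234, 17953 and 17028 reads and log2 ratios of 0.52, 0.45 and 0.38. The small-subunit gene with the highest level per length was RPS12, at 826 FPKM in Bulk, 1090 (Claret), 1028 (eGFP) and 920 (Violet).

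A group of abundant small-subunit genes stayed near the Bulk level. RPS2, at the channel where the message enters, had 26922 reads in Bulk, then 32275 (Claret), 28711 (eGFP) and 24888 (Violet). Its log2 ratio was 0.15 in Claret (0.13 to 0.18), 0.08 in eGFP (0.06 to 0.10) and -0.11 in Violet (-0.14 to -0.09). The intervals exclude 0 on opposite sides, yet no value reached the threshold. For RPS2, 46.6% of 31-base words occur in other genes. RPSA, also described as a laminin receptor, had 16604, 19386, 17578 and 15670 reads and log2 ratios of 0.12, 0.07 and -0.08. RPS24, a gene mutated in Diamond-Blackfan anaemia, had 9458, 9999, 9228 and 8427 reads and log2 ratios of -0.03, -0.05 and -0.17. Their read counts lie in the range of the genes called higher.

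RPS10, another protein of the subunit's head, was called lower in Violet from few reads. It had 92 reads in Bulk, then 98 (Claret), 76 (eGFP) and 59 (Violet), with a log2 ratio of -0.62 in Violet (-1.14 to -0.15, adjusted p = 0.0145, exact binomial test). Of its exon bases 39.4% lie under another gene, the read-through RPS10-NUDT3. The direction of RPS10 turned when the 41, 116, 111 and 120 reads of its named pseudogenes were added, which gave log2 ratios of 0.57, 0.47 and 0.42 in Claret, eGFP and Violet. Likewise few reads fell on RPL17, with 194, 202, 196 and 178, where 35.3% of exon bases lie under another gene, chiefly RPL17-C18orf32. RPL36A had 125, 186, 190 and 140 reads. How reads under 2 overlapping genes were counted is not given in the sources used here.

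The L-ending paralogs did not follow 1 pattern, and 3 of them were lower in the sorted cells. Over the 5 that could be tested, the median log2 ratio was -0.27 (Claret), -0.36 (eGFP) and -0.39 (Violet). In each library 3 of the 5 were called lower, beside 30.7%, 31.5% and 30.5% of all genes, a count over few genes. RPL39L was called higher in Claret and eGFP, but not after centring along gene length, which gave 0.20 and 0.16. RPS27L was called in neither direction.

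RPL26L1 is a close copy of RPL26, a large-subunit protein also known to bind the p53 message. It had 804 reads in Bulk, then 431 (Claret), 333 (eGFP) and 333 (Violet). All 3 sorted libraries lay far below Bulk. The gene (ENSG00000037241, chr5:172958729-172969771, plus strand) had log2 ratios of -1.004 in Claret (-1.18 to -0.84, adjusted p = 3.57e-32), -1.28 in eGFP (-1.47 to -1.10, adjusted p = 2.17e-45) and -1.27 in Violet (-1.46 to -1.08, adjusted p = 2.17e-44), by the exact binomial test. Its partner RPL26 went the other way, with 1020, 1310, 1278 and 1122 reads and log2 ratios of 0.25, 0.31 and 0.14, the first of which was 0.23 with DESeq2 size factors. RPL26L1 thus fell from 44.1% of the pair's reads in Bulk (41.8% to 46.4%) to 24.8% (Claret), 20.7% (eGFP) and 22.9% (Violet). On the FPKM scale RPL26L1 was above RPL26 in Bulk, 44.4 against 26.1, and below it in Claret, 21.8 against 30.7. That order rests on gene models of 1164 and 2513 bases, and 47.4% of the 31-base words of RPL26L1 occur in other genes. RPL26 also lay far below the Bulk median of 153 FPKM over large-subunit genes without an L ending. Whether the counting kept reads from RPL26 was not tested, so the shares of this pair may not be those of the messages.

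RPL22L1 was also lower than in Bulk, while its partner stayed near the Bulk level. RPL22 is an RNA-binding protein of the large subunit that is not needed for translation as such, and RPL22L1 can stand in for it. RPL22L1 (ENSG00000163584, chr3:170864875-170870483, minus strand) had 991 reads in Bulk, then 764 (Claret), 581 (eGFP) and 475 (Violet). The 4 libraries fall in that order. The log2 ratio was -0.48 in Claret (-0.62 to -0.35, adjusted p = 1.13e-11), -0.78 in eGFP (-0.93 to -0.63, adjusted p = 2.99e-25) and -1.06 in Violet (-1.22 to -0.90, adjusted p = 4.74e-41), by the exact binomial test. RPL22 had 1550, 1793, 1776 and 1539 reads and log2 ratios of 0.10, 0.18 and -0.01, called in none. The paralog's share of the pair was 39.0% in Bulk (37.1% to 40.9%), 29.9% (Claret), 24.7% (eGFP) and 23.6% (Violet). Few 31-base words of RPL22L1, 3.9%, occur in other genes. RPL22 stood at 21.3 FPKM in Bulk, also far below that median, and whether the counting kept reads from RPL22 was not tested.

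RPL7L1, found in nucleolar precursors of the large subunit, had 4803 reads in Bulk, then 4284 (Claret), 3784 (eGFP) and 3652 (Violet). Bulk was again the highest. The log2 ratio was -0.27 (-0.33 to -0.21), -0.36 (-0.42 to -0.29) and -0.39 (-0.46 to -0.33) in Claret, eGFP and Violet, and the first was -0.247 with no TMM factor, just short of the threshold. RPL7 (ENSG00000147604) had 6917, 9291, 8549 and 7670 reads and log2 ratios of 0.32, 0.29 and 0.15. The share of RPL7L1 in the pair was 41.0% in Bulk, 31.6% (Claret), 30.7% (eGFP) and 32.3% (Violet). Among the sorted cells this pair differed little.

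The remaining pairs behaved otherwise. RPS27L, a gene induced by p53, had 701 reads in Bulk, then 783 (Claret), 806 (eGFP) and 710 (Violet), with log2 ratios of 0.05, 0.19 and 0.02. Its share of the pair was 10.5% in Bulk and 6.84%, 7.55% and 7.28% in the sorted libraries, while its own ratio was near 0 and that of RPS27 was 0.61 to 0.73. RPL39L, best known from testis and some tumours, had 297, 407, 367 and 290 reads. Its log2 ratio was 0.34 in Claret (0.13 to 0.57, adjusted p = 0.00315, exact binomial test), 0.29 in eGFP (0.07 to 0.52) and -0.03 in Violet (-0.27 to 0.21). RPL39 had 3567, 5504, 4796 and 4331 reads and log2 ratios of 0.52, 0.41 and 0.28, so RPL39L and RPL39 were both higher in Claret and eGFP. RPL3L, a protein of heart and skeletal muscle, and RPL10L, of testis, were at or near 0 reads, beside 14216 to 25258 reads of RPL10.

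**Figure D3:**
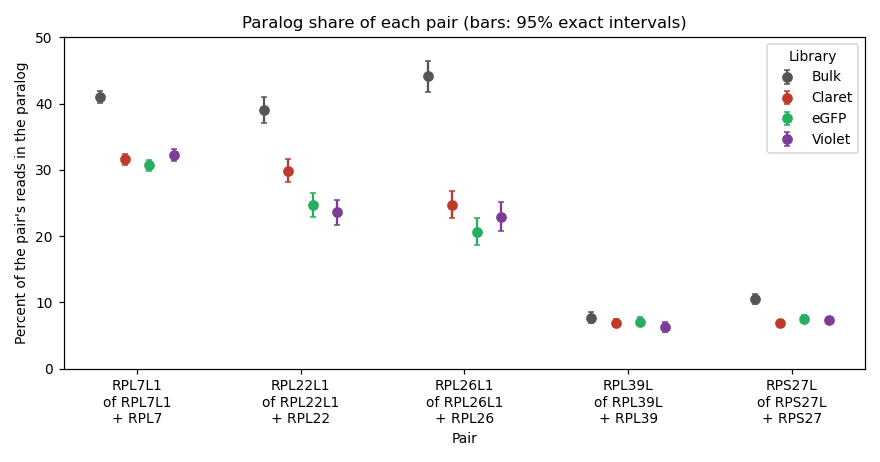
Percent of a pair's reads that fall in the L-ending paralog, for the 5 pairs tested, 1 point per library with its 95% exact interval for counting error. For RPL7L1, RPL22L1, RPL26L1 and RPS27L the Bulk point lies above all 3 slow-cycling points with no overlap of intervals, and for RPL39L the intervals overlap.

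The change of each pair was tested with Fisher's exact test on the 4 counts of a pair in 2 libraries, for 7 pairs with reads in both genes and 6 comparisons, 42 tests in all with Benjamini-Hochberg adjustment over them. Against Bulk the pairs of RPL26L1, RPL22L1, RPL7L1 and RPS27L passed in all 3 libraries. For RPL26L1 the log2 change of the paralog-to-partner ratio was -1.26 (Claret), -1.60 (eGFP) and -1.41 (Violet), with an adjusted p of 3.13e-33 or less by Fisher's exact test. RPL39L to RPL39 passed in Violet only, with a change of -0.31 (adjusted p = 0.0249, Fisher's exact test). Its changes in Claret and eGFP, -0.17 and -0.12, did not pass (adjusted p = 0.224 and 0.368, Fisher's exact test). Between sorted libraries, RPL22L1 to RPL22 was higher in Claret than in eGFP by 0.38 and than in Violet by 0.47 (adjusted p = 0.000124 and 6.23e-06, Fisher's exact test). RPL26L1 to RPL26 was higher in Claret than in eGFP by 0.34, and RPL7L1 to RPL7 was lower in eGFP than in Violet by 0.11 (adjusted p = 0.0125 and 0.0222, Fisher's exact test). RPL3L to RPL3 was higher in Claret than in eGFP (adjusted p = 0.00776, Fisher's exact test), from 19 and 4 reads of RPL3L. Against Bulk, RPL36AL to RPL36A passed in eGFP, with a change of -0.51 (adjusted p = 0.00756, Fisher's exact test). RPL36AL held 95.1% to 96.5% of that pair's reads in all 4 libraries. Per length, RPL36A was the lowest large-subunit gene without an L ending, at 2.03 FPKM in Bulk against a median of 153. Whether the counting kept reads from RPL36A was not tested, so this share may not be that of the messages.

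Among the slow-cycling libraries the ribosomal protein genes differed little but mostly in a single direction. The median log2 ratio of the 82 genes was 0.03 between Claret and eGFP. It was 0.17 when Claret was set against Violet and 0.14 when eGFP was. Relative to Violet, Claret was higher for 82 of 82 genes and eGFP for 80 of 82. Violet was the lowest of the 3 for 80 of 82 members, a place it took for 35% of all genes. Claret was the highest for 59 members and eGFP for 23. Few of these differences were large. Log2 ratios of Claret against Violet ran from 0.03 to 0.61, and those of eGFP against Violet from -0.01 to 0.42.

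Called at 0.25 between Claret and eGFP was 1 member higher, RPL22L1, and 0 lower, beside 2.92% and 2.71% of all genes. Between Claret and Violet 8 were called higher and 0 lower, beside 3.46% and 4.21%. They were RPL22L1, RPL39L, RPL29, RPL38, RPL3, RPS29, RPS2 and RPL12. Between eGFP and Violet 5 were higher and 0 lower, beside 3.41% and 4.74%, namely RPL39L, RPL29, RPL22L1, RPL3 and RPL28. These counts moved with the scaling. With DESeq2 size factors, which put the median of all genes at 0.03 and 0.02 in the 2 comparisons with Violet, 17 members were called higher in Claret than in Violet and 9 higher in eGFP than in Violet. The order of the 3 libraries in read share, given first, rests on the summed reads of each library, with no TMM or DESeq2 factor.

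**Figure D4:**
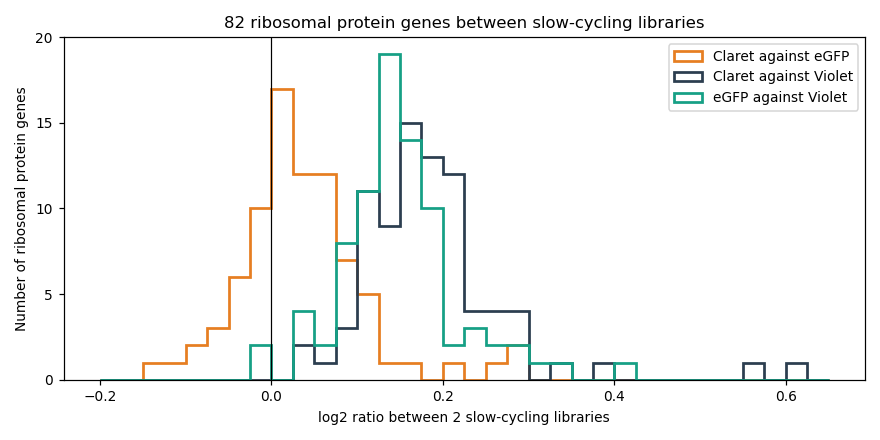
Distribution of the log2 ratio between 2 slow-cycling libraries over the 82 ribosomal protein genes, as the number of genes per bin, 1 outline per pair of libraries. Claret against eGFP centres on 0.03, while both comparisons with Violet lie almost wholly above 0, with medians of 0.17 and 0.14.

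Genes with and without a TOP run overlapped in their ratios. The 51 genes with a run had median log2 ratios of 0.40 (Claret), 0.37 (eGFP) and 0.20 (Violet). The 15 kept genes of the table without a run had 0.36, 0.32 and 0.14, and both groups spanned positive and negative values. L-ending paralogs were not left out here: RPL7L1, RPL26L1 and RPS27L are among the 15, and RPL22L1 is among the 51. RPL3, highest of all, showed no run in its window, and RPL35 and RPS24, called in no library, have runs of 11 and 14 letters. Of the other high genes, RPL12, RPL13A, RPL31, RPS18 and RPS27 have a run, while RPL10 and RPL13 show none. RPL6, called lower in eGFP and Violet, shows none either. Annotated starts can lie away from the start used in a given cell, so a missing run says only that these letters are not in that window. Nor do the members stand out in base composition, with a median GC content of 47.9% against 48.3% for all genes kept. Their gene models are shorter, with a median of 3056 bases against 4761.

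Many other genes of protein synthesis with TOP messages were also called higher. The list has 19 genes, of which 18 were kept, since EEF1G had 0 reads in all 4 libraries. Higher were 11 (Claret), 11 (eGFP) and 10 (Violet), with medians of 0.37, 0.35 and 0.30, where 29.3%, 30% and 30.3% of all genes were higher. Lower were 0, 2 and 4, where 30.7%, 31.5% and 30.5% of all genes were lower. RACK1, a scaffold on the small subunit, had 26580 reads in Bulk, then 54834 (Claret), 48963 (eGFP) and 43732 (Violet), and log2 ratios of 0.94, 0.87 and 0.72. EEF2, the translocation factor, had 24757, 46516, 44734 and 40745 reads and log2 ratios of 0.80, 0.84 and 0.72. At the low end, EIF3K, a subunit of an initiation factor, gave -0.15, -0.28 and -0.45, and HNRNPA1, a splicing regulator, gave -0.24, -0.35 and -0.39.

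FAU and RPL36AL, outside the naming rule, were nearly level. FAU, which encodes a fusion that releases a small-subunit protein, had log2 ratios of 0.13, 0.13 and -0.16. RPL36AL gave 0.11, 0.08 and 0.02. Neither was called against Bulk.

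Most factors that assemble the subunits were called lower in the sorted cells. Of 22 small-subunit assembly genes 1 was called higher in each library, and 19, 19 and 20 lower in Claret, eGFP and Violet, with medians of -0.71, -0.76 and -0.78. The shares of all genes called lower were 30.7%, 31.5% and 30.5%, and those called higher 29.3%, 30% and 30.3%. UTP20 of the processome had 1823 reads in Bulk, then 643 (Claret), 636 (eGFP) and 598 (Violet), and log2 ratios of -1.61, -1.53 and -1.60. UTP4 gave -1.07, -1.15 and -1.24. NOB1, the nuclease of the last cut of 18S ribosomal RNA, was the exception at 0.71, 0.64 and 0.46, and DIMT1, a methylase of that RNA, came next at -0.06, -0.11 and -0.19.

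Of 25 large-subunit assembly genes 1 was called higher in each library, beside 29.3%, 30% and 30.3% of all genes. Called lower were 19, 19 and 20, beside 30.7%, 31.5% and 30.5% of all genes, with medians of -0.57, -0.46 and -0.61. Those called lower in Claret include NOP2, from few reads: 24 in Bulk, then 5 (Claret), 22 (eGFP) and 22 (Violet). MRTO4, a placeholder for the stalk protein RPLP0 in precursors, had 1317 reads in Bulk, then 497 (Claret), 455 (eGFP) and 382 (Violet), and log2 ratios of -1.51, -1.54 and -1.78. RPLP0 itself lay above Bulk in the same libraries, but passed the threshold in Claret only, as given above. NCL, the abundant nucleolar protein nucleolin, had 14649, 6783, 5776 and 5587 reads and log2 ratios of -1.22, -1.35 and -1.39. EFL1, a GTPase that frees the mature subunit, was the gene called higher, at 0.58, 0.66 and 0.51, and NMD3, the export adaptor, gave 0.10, 0.17 and 0.14.

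RNA polymerase I genes were mostly lower too. Among the 14 genes of the list, 3, 3 and 2 were called higher, beside 29.3%, 30% and 30.3% of all genes, and 11, 10 and 10 lower, beside 30.7%, 31.5% and 30.5%, with medians of -0.41, -0.44 and -0.49. UBTF, the factor that marks active ribosomal DNA, had 2574, 1409, 1211 and 1390 reads and log2 ratios of -0.98, -1.10 and -0.89. CD3EAP, a polymerase subunit, gave -2.22, -1.68 and -1.84 from 163, 36, 50 and 44 reads. POLR1D, a subunit shared with RNA polymerase III, was higher at 0.62, 0.65 and 0.61, as was TAF1D, a subunit of the promoter selectivity factor, at 0.59, 0.64 and 0.40.

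The chaperones that escort single ribosomal proteins gave medians of -0.56, -0.54 and -0.57 over 7 genes, with 4 called lower in each library, beside 30.7%, 31.5% and 30.5% of all genes, and 1, 0 and 0 higher, beside 29.3%, 30% and 30.3%. GRWD1, which escorts RPL3, had 1605 reads in Bulk, then 568 (Claret), 531 (eGFP) and 538 (Violet), and log2 ratios of -1.60, -1.60 and -1.57. RPL3 was the highest member in the same libraries. TSR2, which escorts RPS26, gave -1.01, -0.94 and -0.996, while RPS26 was called in none. PDCD2, which escorts RPS2, gave 0.33, 0.20 and 0.10, and NAP1L1, also counted in the TOP list, gave 0.06, 0.10 and 0.02.

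**Figure D5:**
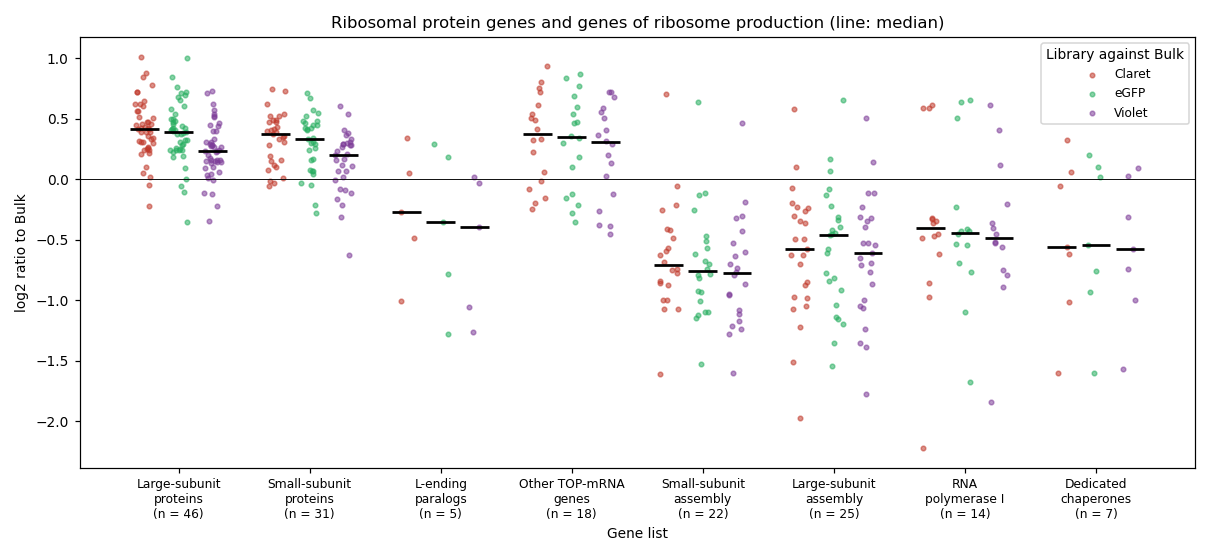
Log2 ratio of each slow-cycling library to Bulk on the vertical axis for the genes of each list, 1 point per gene and library, with the median as a line and the number of genes kept under each list. Ribosomal proteins of both subunits and other TOP genes have medians above 0, and the L-ending paralogs, assembly factors, RNA polymerase I genes and chaperones have medians below 0.

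The family has many processed copies, which could take or give reads. Among the genes counted, 1144 pseudogenes are named after 77 of the members, and their reads came to 3.76% of member reads in Bulk, 3.66% (Claret), 3.73% (eGFP) and 3.79% (Violet). That share was nearly the same in all 4 libraries, and adding the reads to each member left the numbers of genes called within 1.5 times of those above. The members lie on 21 chromosomes, with 12 on chromosome 19 and 9 on chromosome 3.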

How the data were processed

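RNA sequencing gave 4 libraries, 1 per group, grouped by sample title. The authors deposited whole-number counts of reads per gene without normalization, as the file headers and values show (per the file headers). The submitters' processing notes name HISAT2 2.0.5 and featureCounts 1.5.0-p3, without saying how strand or multiple matches were treated. FPKM values were deposited too, and follow from the same counts with library totals of 96.9%, 100.0%, 100.7% and 103.5% of the summed reads in Bulk, Claret, eGFP and Violet, so FPKM compares levels within a library and enters as an alternative only. Gene coordinates match GENCODE 29 on GRCh38.

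Genes with a mean of at least 1 CPM were kept (14585). TMM factors came from edgeR 4.0.16 (R 4.3.3). A quasi-likelihood fit in edgeR needs replicates, which 1 library per group does not give, so reads of 2 libraries were compared for every gene by a two-sided exact conditional binomial test (scipy 1.17.1), with Benjamini-Hochberg adjustment over all 14585 genes. Intervals are 95% exact (Clopper-Pearson) intervals for counting error. The procedure was tested on simulated counts that held counting error alone, so that check does not cover variation between cultures.

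The genes, lists, thresholds and naming rule were chosen with earlier results of these data known. Named are all L-ending paralogs and partners, RPSA, RPLP0, RPLP1, RPLP2 and RPS4X, all genes past 2-fold, and, of the others, the 5 highest and 5 lowest by mean ratio, the 3 with most reads in Bulk and the 3 with the widest range among slow-cycling libraries. The genes not kept and those outside the rule are named too. Some genes that these rules select are not reported here, though they enter all counts. Of each pathway list the 2 highest and 2 lowest are named. RPS12, NOP2, and the members listed only as called or not called, were chosen after their values were seen. Alternatives were library-size scaling, DESeq2 1.42.0 size factors, filters on low counts, log2(FPKM + 1), pseudogene reads, the treatment field, GC content and gene length.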

Additional observations from a re-analysis of the deposited data

Results flagged for a closer look

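The genes below separated a pair of sorted libraries in the exact binomial test, with an adjusted p under 0.05 over all genes and a log2 ratio of at least 0.25. Since all share 1 library per group, each is a difference between libraries. RPL22L1 was higher in Claret than in eGFP by 0.30 on the log2 scale, and was called in all 3 pairs. In Claret against Violet the log2 ratio was 0.57 for RPL22L1, 0.38 for RPL39L, 0.33 for RPL29, 0.29 for RPL38, 0.28 for RPL3, 0.28 for RPS29, 0.27 for RPS2 and 0.26 for RPL12. In eGFP against Violet it was 0.32 for RPL39L, 0.29 for RPL29, 0.28 for RPL22L1, 0.27 for RPL3 and 0.25 for RPL28. The median shift of the whole family was 0.17 and 0.14 in these 2 comparisons. That lies under the threshold of 0.25 by which these genes were picked, so each exceeds it by that rule.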

How the results depend on the processing

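No paired analysis was possible because each group holds 1 library, and no library could be left out. With the titles kept, the 0.25 counts against Bulk ran from 55 to 61 higher in Claret, 51 to 61 in eGFP and 23 to 41 in Violet over 8 alternatives, against 59, 55 and 34. Filters on low counts and pseudogene reads left all 18 summary values within their limits, but RPS10 turned to 0.57, 0.47 and 0.42 in Claret, eGFP and Violet once pseudogene reads were added, and RPS10 and RPL36A drop out at a mean of 10 CPM. The Violet median of 0.20 became 0.25 with no TMM factor and 0.15 with DESeq2 size factors or log2(FPKM + 1). With these last 2 settings, members higher in Claret than in Violet became 17 and 17, and in eGFP than in Violet 9 and 8. Centring along gene length gave a Claret median of 0.35 and 3 members higher in eGFP than in Violet, and centring along GC content a large-minus-small median difference of 0.078 in Violet, against 0.031. The cause of these shifts was not tested.

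With groups from the treatment field the reference is the library titled Violet. Claret (titled Bulk) then has 6 higher, 34 lower, a median of -0.20 and a large-minus-small difference of -0.031. The library named eGFP there has 8 and 0, 0.17 and -0.018, and the one named Violet 5 and 0, with 0.14. Between Claret and eGFP 3 are higher and 59 lower, between Claret and Violet 4 and 55, and between eGFP and Violet 1 higher. By construction the reference changes, and single genes reverse. In Claret these are RPL10 -0.54, RPL12 -0.62, RPL13 -0.52, RPL13A -0.71, RPL22L1 1.06, RPL26 -0.14, RPL26L1 1.27, RPL29 -0.17, RPL3 -0.73, RPL31 -0.58, RPL36A -0.16, RPL38 -0.0070, RPL39 -0.28, RPL4 -0.29, RPL5 -0.33, RPL6 0.35, RPL7 -0.15, RPL7L1 0.39, RPLP0 -0.16, RPLP1 -0.15, RPS10 0.62, RPS18 -0.54, RPS27 -0.61 and RPS4X -0.38. In eGFP they are RPL22L1 0.57, RPL26L1 0.26, RPL6 0.13 and RPL7L1 0.12, and in Violet RPL22L1 0.28, RPL39L 0.32, RPL7L1 0.038 and RPS10 0.34. Depth limits RPS10, RPL36A and RPL17, at 59 to 202 reads.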
